A study of Danio rerio with 8 samples.

Results

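The genes described here are 8 markers of cholinergic motor neurons measured in adult zebrafish spinal cord: chata, slc18a3a, slc5a7a, isl1, isl2a, mnx1, ache and prph. They were chosen by symbol, with earlier results of these data known. All 8 were found among the 25309 gene entries of the deposited expression tables. The tissue was a 2 mm piece of cord, taken either from uninjured fish or 1 week after complete transection (1 wpi), when it held the lesion and the cord next to it. The cut was made 4 mm caudal to the brainstem. Fish were males and females of 3 to 9 months, either mstnb mutants or their wild-type siblings; mstnb encodes a zebrafish myostatin, a secreted TGF-beta family factor. The labels name neither the allele nor an added agent, and say nothing on how many fish went into a library. There were 2 libraries of uninjured and 2 of injured cord from each genotype, which makes 4 groups. P-values therefore measure the spread between these libraries, which may be technical.

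Spinal motor neurons are the neurons whose axons leave the cord to drive skeletal muscle, and acetylcholine is their transmitter. The transmitter is made from choline and acetyl-CoA by choline acetyltransferase, loaded into vesicles by the vesicular acetylcholine transporter, and broken down in the synaptic cleft by acetylcholinesterase; the choline is then taken back up by a high-affinity transporter. The LIM-homeodomain factors of the Islet family and the homeobox factor Mnx1 set motor neuron identity in the embryo. None of these genes is restricted to motor neurons: cholinergic interneurons use the same transmitter genes, and Islet factors and peripherin are also found in sensory ganglion neurons.

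Values are CPM, the reads of a gene scaled to the total of its library. Depth was 20082006 to 33409826 reads per library. The mutant libraries held 10.2 to 26.4 CPM of mstnb and the wild-type libraries 42.2 to 74.8 CPM, so the targeted gene followed the labels. All 18 pan-neuronal markers were detected in every library, as were all 8 members. Before any comparison, 2 uninjured libraries stood apart. Mutant uninjured 1 had a summed pan-neuronal level of 4060 CPM against 6105 to 9630 CPM in the other 7 libraries, and 123780 CPM of mbpa, the myelin basic protein gene, against 33531 to 81797 CPM. It was the lowest library of all for 8 of 8 members, where 38.3% of the 19114 tested genes had their lowest value in it. Wild type uninjured 1 held transcripts of other organs: the summed level of 16 liver genes was 7043 CPM there against 21.1 to 371 CPM elsewhere, that of 16 oocyte genes 1285 CPM against 231 CPM in wild type uninjured 2, and that of 30 skeletal muscle genes 35000 CPM against at most 17419 CPM. Oocyte genes were also high in mutant 1 wpi 1, at 1666 CPM. Across genes, the correlation of replicates was lowest in uninjured wild type, at 0.902, against 0.959 to 0.978 in the other groups. Results that rest on these libraries are given with and without them. In whole tissue, fewer cells of a type and less RNA per cell cannot be told apart.

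The transmitter genes were examined in the order of the transmitter's life. chata, encoding choline acetyltransferase, stood at 372 and 281 CPM in wild type uninjured 1 and 2 and at 198 and 197 CPM in wild type 1 wpi 1 and 3. In the mutants it stood at 176 and 318 CPM in uninjured 1 and 2 and at 201 and 207 CPM at 1 wpi. The 4 injured libraries lay within a factor of 1.05 of each other while the uninjured ones spread over a factor of 2.11, and the low uninjured mutant library made the groups overlap. The highest value was that of wild type uninjured 1, the library rich in liver and muscle transcripts.

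slc18a3a, the vesicular acetylcholine transporter gene, stood at 221 and 307 CPM in uninjured and 293 and 262 CPM in injured wild type. Its mutant values were 111 and 271 CPM uninjured and 304 and 329 CPM injured. In contrast to chata, its injured values lay in the upper part of the uninjured range or, in mutant 1 wpi 2, above it. Wild type 1 wpi 3, at 262 CPM, lay below wild type uninjured 2 and mutant uninjured 2. In the RefSeq annotation of the GRCz12tu assembly, slc18a3a is the next coding gene to chata on chromosome 13, and the 2 genes do not overlap there.

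slc5a7a, the high-affinity choline transporter gene, stood at 64.2 and 50.8 CPM in uninjured and 51.1 and 47.6 CPM in injured wild type. The mutant values were 24.9 and 60.5 CPM uninjured and 49.7 and 66.7 CPM injured. Injured and uninjured libraries overlapped in both genotypes.

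ache, encoding acetylcholinesterase, stood at 455 and 551 CPM in uninjured and 259 and 303 CPM in injured wild type. The mutant values were 197 and 549 CPM uninjured and 265 and 349 CPM injured. As for chata, both injured wild-type libraries lay below both uninjured ones, and mutant uninjured 1 lay below every injured library. Muscle also makes acetylcholinesterase, and the summed level of 30 skeletal muscle genes was 10194 to 35000 CPM in uninjured and 2431 to 6228 CPM in injured libraries. Its part in the level of ache was not tested. chrna1, a muscle acetylcholine receptor subunit gene, stood at 0.241 to 2.41 CPM in all libraries. In RefSeq, ache overlaps the gene si:ch211-196f2.3, which the tables also list, and how reads were divided between them is not given in the sources used here.

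The 3 transcription factor genes had lower CPM. isl1 stood at 26.5 and 43.3 CPM in uninjured and 27.1 and 27.4 CPM in injured wild-type cord, while the mutants had 14.9 and 38.7 CPM in uninjured and 26.0 and 24.2 CPM in injured cord. The injured values of isl1 sat inside the uninjured range. isl2a stood at 16.5 CPM in both uninjured and at 8.51 and 11.5 CPM in the injured wild-type libraries, and at 3.08 and 12.8 CPM in uninjured and 10.3 CPM in both injured mutant libraries. Both injured wild-type libraries were thus below both uninjured ones for isl2a, but the mutants spanned them.

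mnx1 stood at 2.41 and 7.04 CPM in uninjured and 1.79 and 2.41 CPM in injured wild type. Its mutant values were 1.65 and 6.46 CPM uninjured and 3.61 and 3.30 CPM injured. mnx1 differed more between the libraries of an uninjured group than between the injured groups.

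prph, encoding peripherin, an intermediate filament protein of neurons with axons in peripheral nerves, was the member with the clearest separation between injured and uninjured cord. It stood at 64.8 and 64.0 CPM in uninjured and 220 and 193 CPM in injured wild type. The mutant values were 27.4 and 65.6 CPM uninjured and 144 and 176 CPM injured. Every injured library exceeded every uninjured one, which held for prph alone among the members; 21.3% of all tested genes did so. For 0 of the 8 members did all injured libraries lie below all uninjured ones, against 2.44% of all tested genes.

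**Figure D1:**
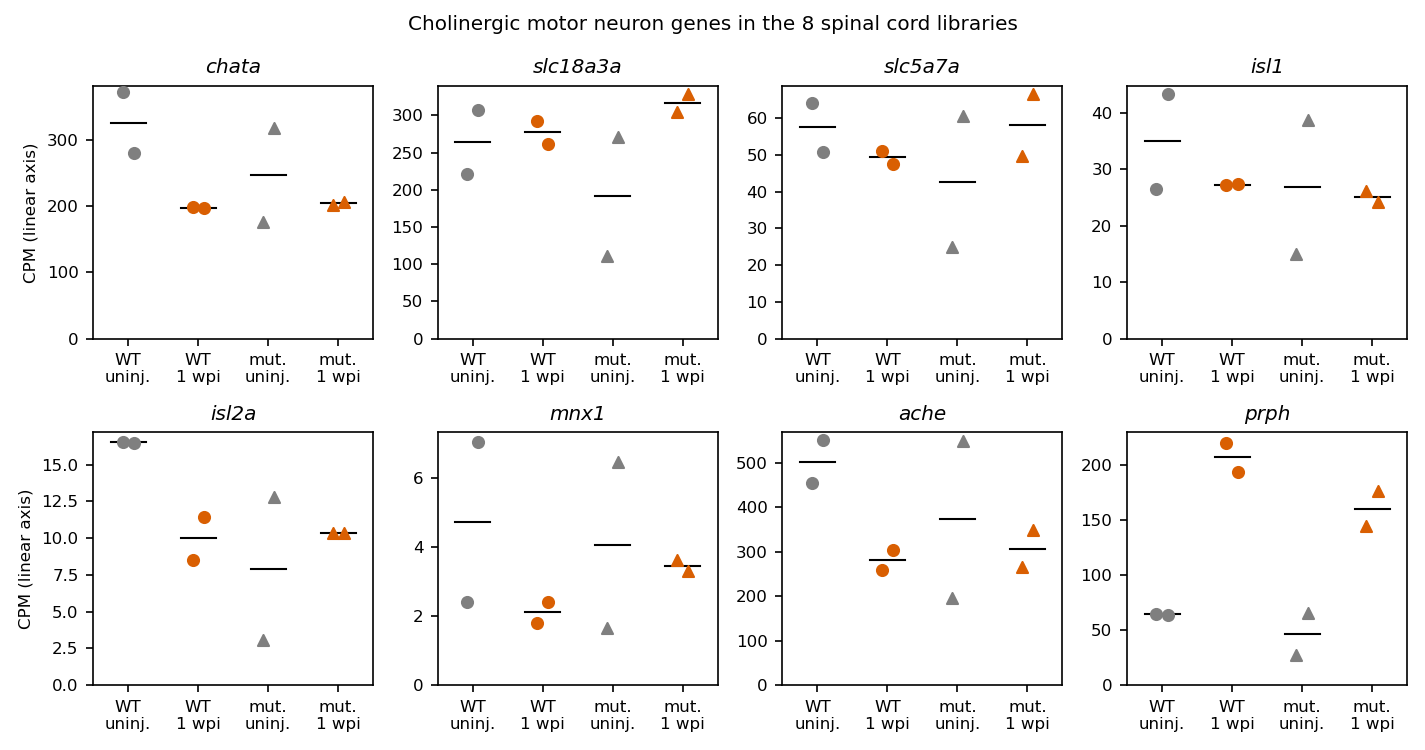
CPM of each member (linear axis from 0, a separate scale per gene) in the 8 libraries, with circles for wild type (WT), triangles for mutants (mut.), grey for uninjured (uninj.), orange for 1 wpi and a bar at each mean of 2 libraries. The injured libraries of prph, 144 to 220 CPM, all lie above its uninjured ones, 27.4 to 65.6 CPM, while the groups of the other 7 genes overlap.

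Injured and uninjured cords were then compared to find the response of these genes to transection. Most genes had a higher CPM after injury: the median log2 change over all tested genes was 0.29 in wild type, 0.37 in mutants and 0.31 averaged over both, and TMM scaling, which equalises the bulk of the genes between libraries, moved these medians to 0.04, 0.00 and 0.01. Log2 changes of single genes after injury are therefore given relative to the all-gene median, with the limma standard error (SE). Adjusted p-values belong to the change before that shift. Medians of gene lists, genotype comparisons, the interaction and the closing section are given without the shift. The word called is used for a gene whose limma p, adjusted by Benjamini-Hochberg over all 19114 genes, was under 0.05.

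prph rose after injury in both genotypes. Its mean went from 64.4 ± 0.571 to 207 ± 18.5 CPM in wild type and from 46.5 ± 27.0 to 160 ± 22.7 CPM in mutants (SD, n = 2 libraries each). The relative log2 change was 1.38 ± 0.36 in wild type (limma adjusted p = 0.0265), 1.51 ± 0.36 in mutants (0.0190) and 1.46 ± 0.26 averaged over genotypes (0.00124), which is a relative rise of 2.75-fold. The averaged call held under every alternative and in every fit that left out a library. The calls within a genotype were less stable, although the log2 change before the shift stayed at 1.57 to 1.75 in wild type and at 1.27 to 2.49 in mutants in every fit that left out a library, against 1.66 and 1.88 with all libraries. The limma adjusted p for wild type was 0.262 and 0.200 when wild type 1 wpi 1 or 3 was left out, and 0.0521 and 0.0526 when mutant 1 wpi 1 or 2 was left out. For mutants it was 0.114 when mutant uninjured 1 was left out, 0.147 and 0.187 when mutant 1 wpi 1 or 2 was, and 0.0502 and 0.0515 when wild type 1 wpi 1 or 3 was. The wild-type call was also lost without the 2 oocyte-rich libraries, wild type uninjured 1 and mutant 1 wpi 1 (log2 change 1.67, limma adjusted p = 0.0927), and the mutant call in edgeR on the recovered reads (0.0588).

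Among the members, 1 of 8 rose and 0 fell in each of these comparisons. Over all genes, 2.90% rose and 0.952% fell in wild type, 2.94% and 0.251% in mutants, and 11.0% and 1.21% averaged over genotypes, so 1 of 8 averaged is near the share of all genes. The members' median log2 change before the shift was -0.50 in wild type, 0.30 in mutants and -0.09 averaged, against 0.29, 0.37 and 0.31 for all genes. With TMM scaling, 5.49% of all genes rose and 2.97% fell in the averaged comparison, and 64.9% rather than 90.1% of the calls were rises. That split was 63.4% against 75.3% in wild type and 75.5% against 92.1% in mutants.

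In the comparison averaged over genotypes, chata and ache were the members with the lowest relative values. The averaged relative log2 change of chata was -0.77 ± 0.22 and did not pass (limma adjusted p = 0.194), and that of ache was -0.79 ± 0.28 (0.300). With TMM scaling both passed as lower (limma adjusted p = 0.0242 and 0.0344), as they did in edgeR on the recovered reads (0.0310 and 0.0417), where 4.57% of all genes rose and 3.28% fell. Scaled to the pan-neuronal list, ache passed as lower (limma adjusted p = 0.0479), where 1.79% of all genes did, and chata did not (0.0666). In wild type alone their relative changes were -0.99 ± 0.31 and -1.12 ± 0.40, and in mutants -0.58 ± 0.31 and -0.48 ± 0.40, with no call by limma or edgeR within a genotype; in wild type mnx1, at -1.05 ± 0.56, lay between them. The wild-type log2 change of chata before the shift was -0.71, and -0.50 without wild type uninjured 1. Without mutant uninjured 1, the averaged log2 change of ache before the shift was -0.84, against -0.47 with all libraries. The all-gene medians were 0.17 and 0.31.

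The transporter genes had averaged relative changes near 0, namely 0.16 ± 0.26 for slc18a3a and -0.14 ± 0.27 for slc5a7a. With all libraries neither passed (limma adjusted p = 0.262 and 0.711). For slc18a3a the relative change was -0.20 ± 0.37 in wild type and 0.49 ± 0.37 in mutants. Without mutant uninjured 2, the averaged log2 change of slc18a3a before the shift was 0.79, where the all-gene median was 0.45. For the transcription factor genes the averaged relative changes were -0.44 ± 0.30 for isl1, -0.36 ± 0.35 for isl2a and -0.69 ± 0.39 for mnx1, none of them called (limma adjusted p = 0.811, 0.948 and 0.558). The averaged value of chata, -0.77, lies within 2 SE of each of these estimates. In edgeR on the recovered reads, isl1 and mnx1 had averaged log2 changes of -0.55 and -0.98 (edgeR adjusted p = 0.159 and 0.204). Their unadjusted edgeR p was under 0.05, as it was for chata, ache and prph. isl2a had opposite signs in the genotypes, -0.97 ± 0.50 in wild type and 0.23 ± 0.50 in mutants. That difference in sign rests on mutant uninjured 1: before the shift, the mutant log2 change of isl2a was 0.59 with it and -0.28 without it.

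**Figure D2:**
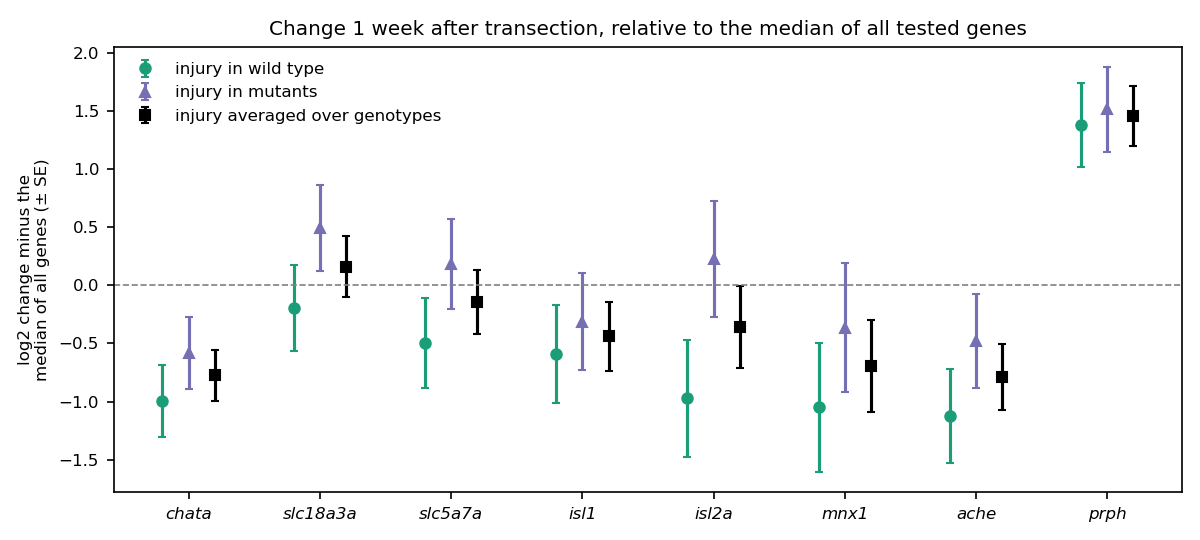
Log2 change from uninjured to 1 wpi of each member, minus the median change of all tested genes (dashed line), in wild type (green circles), mutants (purple triangles) and averaged over both (black squares), with limma SE as bars. prph stands at 1.38 to 1.51 above the median, and the averaged values of chata and ache at -0.77 and -0.79.

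The authors' deposited table for injured against uninjured wild type lists 7 members as lower and prph as higher at an adjusted p under 0.05, where it lists 17.6% of all 25309 entries as lower and 17.6% as higher. In the authors' deposited table the log2 fold change was -1.05 for chata, -1.20 for ache, -1.38 for mnx1, -1.09 for isl2a, -0.69 for isl1, -0.57 for slc5a7a, -0.29 for slc18a3a and 1.31 for prph. The 4 members with the lowest values there, mnx1, ache, isl2a and chata, also had the lowest relative limma changes in wild type. Both sets of values come from the same wild-type libraries, so this likeness is not independent support. For chata the authors' standard error was 0.072, against 0.31 in limma.

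Members were next set against each other within each library, since a ratio of 2 genes does not depend on how libraries are scaled. The ratios were singled out after the values had been seen. All 28 pairs were computed, and each was compared between injured and uninjured libraries by a two-sided exact permutation test within genotype, for which 36 relabellings give a smallest possible p of 0.0556. The injured and uninjured ranges did not overlap for 12 pairs, of which 7 were the pairs with prph and 5 were among the 21 others. All had a Benjamini-Hochberg adjusted p of 0.120 or more in that exact test over the 28 pairs, so the design could not reach 0.05.

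Of these 5 pairs, 4 were the ratios of a transporter gene to an enzyme gene. slc18a3a over chata was 0.594 to 1.09 in uninjured and 1.33 to 1.59 in injured libraries, a mean log2 difference of 0.94. slc18a3a over ache was 0.486 to 0.567 in uninjured and 0.863 to 1.15 in injured libraries, a mean log2 difference of 0.95, with 0.93 in wild type and 0.98 in mutants. The separation of slc18a3a from ache was also present without mutant uninjured 1, with a difference of 0.99, and when the 2 oocyte-rich libraries were left out, with 0.86.

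slc5a7a over chata was 0.142 to 0.190 in uninjured and 0.241 to 0.323 in injured libraries, and slc5a7a over ache 0.0922 to 0.141 and 0.157 to 0.198. Every injured library thus had higher ratios of both transporter genes to both enzyme genes than every uninjured one. The remaining pair was slc18a3a over isl1, at 7.01 to 8.31 in uninjured and 9.56 to 13.6 in injured libraries. By contrast, ache over chata overlapped, at 1.12 to 1.96 in uninjured and 1.31 to 1.69 in injured libraries.

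The same ratios were taken for 18410 tested genes with reads in every library. Over chata, 46.3% of these genes had all injured ratios above all uninjured ones and 0.630% all below. Over ache the shares were 33.1% and 0.348%. Over slc18a3a they were 5.09% and 6.75%, and over slc5a7a 8.75% and 2.68%. Such shares were not computed over isl1, isl2a, mnx1 or prph. How common a higher injured ratio to isl1 was among all genes is thus not known. A higher injured ratio to chata or ache was thus common among all genes, and is not particular to the transporter genes.

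**Figure D3:**
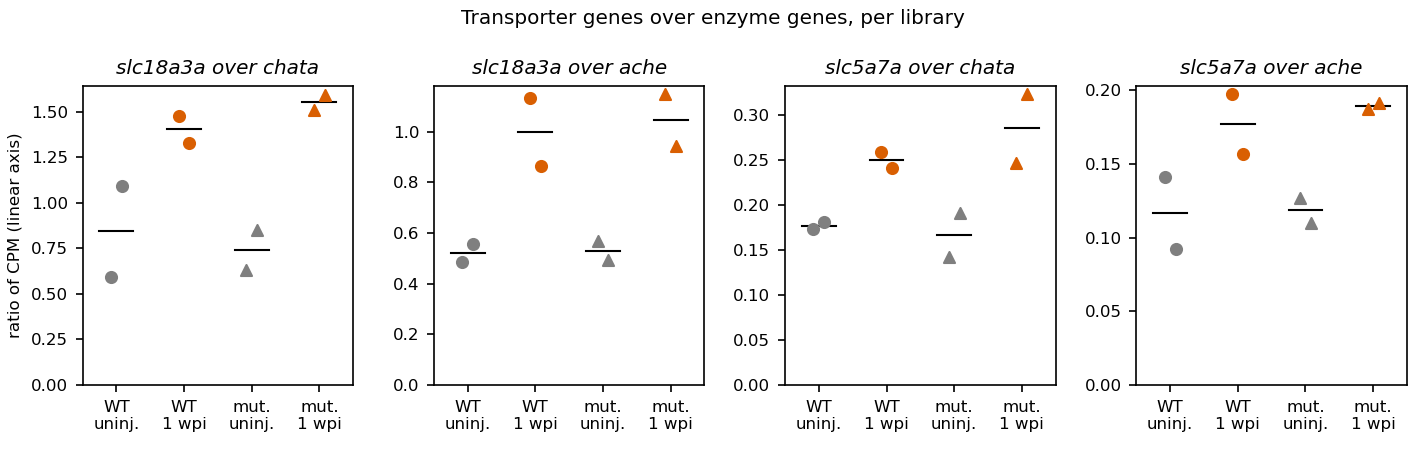
Ratio of CPM of each transporter gene to each enzyme gene (linear axes from 0), with circles for wild type, triangles for mutants, grey for uninjured, orange for 1 wpi and a bar at each mean of 2 libraries. In all 4 panels the injured libraries lie above the uninjured ones, for slc18a3a over ache at 0.863 to 1.15 against 0.486 to 0.567.

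The members were also set against the neurons as a whole, as log2(CPM + 1) minus the mean of the 18 pan-neuronal markers in the same library, which include snap25a, a presynaptic SNARE gene, and elavl3, an RNA-binding protein gene. In the list itself stmn4, uchl1 and vamp2 were called higher after injury, 3 of 18, and 0 were called lower. Of all genes, 11.0% were called higher and 1.21% lower in that averaged comparison. With TMM scaling 3 of the list rose and 1 fell, where 5.49% and 2.97% of all genes did. On this scale chata lay at 0.60 to 1.45 in uninjured and at -0.03 to 0.13 in injured libraries, and ache at 1.01 to 1.74 and 0.50 to 0.72. Injured libraries lay below all uninjured ones for 4 of 8 members, chata, isl1, mnx1 and ache, where 7.67% of all tested genes did so. prph lay above in all injured libraries, where 7.96% of all tested genes did so. slc18a3a, slc5a7a and isl2a overlapped.

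Without stmn4, uchl1 and vamp2 in the reference, chosen after their values were seen, chata and ache still lay below in all injured libraries and isl1 and mnx1 overlapped, with 3.32% of all tested genes lying below and 12.3%, prph among them, above. Of 9 tested genes of glutamate, glycine and GABA transmission, 0 were called by limma or edgeR in the averaged comparison and 1 had an unadjusted p under 0.05. Among 4 tested genes of sympathetic and monoaminergic neurons, 0 were called by limma. In edgeR and with TMM scaling 1 of them fell, where 3.28% and 2.97% of all genes did. slc32a1, the vesicular inhibitory amino acid transporter gene, stood at 57.4 to 136 CPM in uninjured and 111 to 129 CPM in injured libraries. Its averaged relative log2 change was -0.05 ± 0.25. It was -0.54 ± 0.27 for gad1b of the same list and -0.50 ± 0.29 for snap25a. For slc17a6b and slc6a5 it was 0.16 ± 0.29 and 0.11 ± 0.38. None of these was called by limma, and estimates below the all-gene median were not confined to the members.

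**Figure D4:**
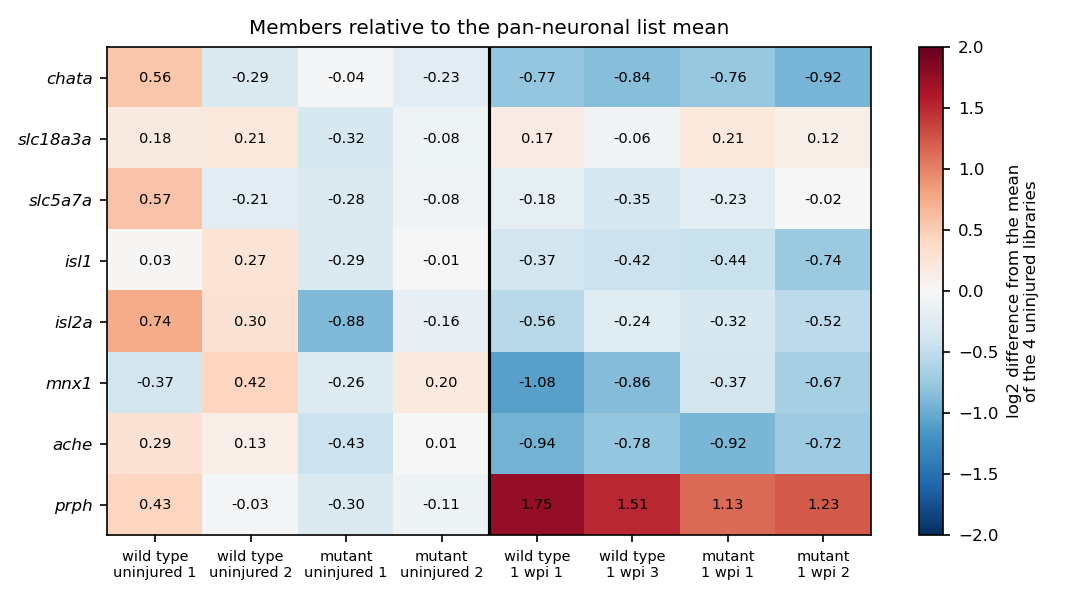
Each member's log2(CPM + 1) minus the pan-neuronal mean of the same library, shown as the difference from its mean over the 4 uninjured libraries, with blue for lower and red for higher values. To the right of the line, the injured libraries of chata stand at -0.92 to -0.76 and those of prph at 1.13 to 1.75, while those of slc18a3a stand at -0.06 to 0.21.

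Mutants and wild-type siblings were compared to find whether loss of mstnb changes these genes. In uninjured cord 0 of 8 members and 0% of all genes were called by limma, with 852 genes and 1 member, isl2a, at an unadjusted p under 0.05; edgeR called 0 genes. All 8 members had a lower estimate in uninjured mutants, from -0.24 ± 0.56 for mnx1 to -1.22 ± 0.50 for isl2a (log2 ± SE, limma adjusted p = 0.989 and 0.982). Over all genes, 44.6% had a higher estimate in uninjured mutants. Without mutant uninjured 1 the 8 estimates ranged from -0.35 to 0.51. These estimates are not shifted by the all-gene median, which was -0.06 with all libraries and 0.22 without mutant uninjured 1. All members but mnx1 lay below that 0.22. The authors' deposited table lists 7 of the 8 as lower in uninjured mutants, all but mnx1, where it lists 12.4% of all entries as lower.

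At 1 wpi, 0 of 8 members were called by limma and 0 had an unadjusted p under 0.05, against 0.267% of all genes called; edgeR called 0 genes. The limma estimates ranged from -0.37 ± 0.36 for prph to 0.53 ± 0.56 for mnx1. For prph, the authors' deposited table lists a log2 fold change of -0.43 with an adjusted p of 0.000199, the sole member it lists as different at 1 wpi, where it lists 2.79% of all entries as lower. Both injured mutant libraries, at 144 and 176 CPM, lay below both injured wild-type libraries, at 193 and 220 CPM, as was the case for 2 of 8 members and 15.6% of all tested genes; limma did not call the difference (adjusted p = 1).

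The interaction asks whether injury had the same effect in both genotypes, and is the mutant change less the wild-type change. It was called by limma for 0 of 8 members, 0 of them at an unadjusted p under 0.05, and for 0.565% of all genes; edgeR called 0 genes. The 8 estimates were all positive, from 0.22 ± 0.51 for prph to 1.28 ± 0.71 for isl2a, except that prph stood at -0.047 with pan-neuronal scaling. Over all genes, 57.3% had a positive estimate. Without mutant uninjured 1 the members' estimates ranged from -0.40 to 0.40. The all-gene median was 0.09 with all libraries and -0.19 without mutant uninjured 1. All members but isl1 and prph lay above that -0.19. The injury response of these genes was thus not shown to differ between genotypes, and intervals of this width do not show that it was alike.

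Genes that work with the members were taken from lists chosen with earlier results of these data known. Of 7 tested paralogs and partners of the cholinergic genes, 1 rose and 0 fell in the averaged comparison, where 11.0% of all genes rose, with a median log2 change of 0.33 against 0.31 for all genes. The riser was slc44a1b, a choline transporter-like gene, at 147 and 170 CPM in uninjured and 404 and 454 CPM in injured wild-type cord, while the mutants had 130 and 216 CPM in uninjured and 370 and 435 CPM in injured cord. All its injured libraries exceeded all uninjured ones, with a relative log2 change of 1.03 ± 0.21 (limma adjusted p = 0.00183). Choline transporter-like proteins serve membrane lipid synthesis in many cell types, glia included. In edgeR, 1 of the 7 paralogs and partners rose and 1 fell, where 4.57% and 3.28% of all genes did.

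colq, encoding the collagen tail that anchors acetylcholinesterase, had a relative log2 change of -1.13 ± 0.42 (limma adjusted p = 0.224, or 0.0586 with TMM scaling). It stood at 8.32 to 34.2 CPM in uninjured and 8.51 to 11.8 CPM in injured libraries. slc18a3b, the second vesicular acetylcholine transporter gene, stood at 0.357 to 1.80 CPM in uninjured and 1.06 to 3.43 CPM in injured libraries and was not called (limma adjusted p = 0.144). The values of both genes overlapped between injured and uninjured libraries.

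Of 25 tested genes of motor neuron specification and identity, 2 rose and 0 fell, with a median log2 change of 0.22; a share of 2 in 25 is no larger than the 11.0% of all genes that rose. These were alcama and alcamb, both encoding ALCAM-type cell adhesion molecules, a class used to mark motor neurons in vertebrate embryos. alcamb stood at 12.4 and 11.6 CPM in uninjured and 29.7 and 33.9 CPM in injured wild-type cord, and in mutants at 4.25 and 9.10 CPM uninjured and 19.5 and 22.1 CPM injured. The groups did not overlap, with a relative log2 change of 1.14 ± 0.27 (limma adjusted p = 0.00466). For alcama it was 0.87 ± 0.33 (limma adjusted p = 0.0343), and with TMM scaling that call was lost (0.0760). cntn2, encoding the axonal adhesion molecule contactin 2, was not called (limma adjusted p = 0.0562).

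Of 13 neurofilament and axon cytoskeleton genes, 4 rose and 0 fell, where 11.0% and 1.21% of all genes did. Their median log2 change was 0.50. With TMM scaling 3 rose and 1 fell, where 5.49% and 2.97% of all genes did. gap43, a growth cone protein gene, went from 176 ± 85.8 to 1780 ± 219 CPM in wild type and from 189 ± 75.3 to 1402 ± 146 CPM in mutants (SD, n = 2 libraries each), with a relative log2 change of 2.86 ± 0.26 (limma adjusted p = 3.59e-05). inab, which encodes an internexin, an intermediate filament protein of the same family as peripherin, stood at 3.93 to 17.7 CPM in uninjured and 42.0 to 56.1 CPM in injured libraries. The other risers were stmn2b, a stathmin gene, with a relative log2 change of 1.23 ± 0.28, and sncga, a gamma-synuclein gene, with 0.42 ± 0.19. With TMM scaling the call of sncga was lost (limma adjusted p = 0.238).

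Of 14 tested neuronal acetylcholine receptor genes, 0 were called by limma and 2 had an unadjusted p under 0.05, with a median log2 change of -0.26. With TMM scaling and in edgeR, 2 fell and 0 rose, where 2.97% and 3.28% of all genes fell. chrna3, a nicotinic receptor subunit gene, had a relative log2 change of -1.07 ± 0.28 (limma adjusted p = 0.104) and passed as lower with TMM scaling (0.0264). It stood at 27.5 to 89.3 CPM in uninjured and 24.9 to 32.3 CPM in injured libraries, which overlapped. chrna2a and chrm4a, a nicotinic and a muscarinic receptor gene, had relative changes of 0.80 ± 0.35 and 0.51 ± 0.38 from under 6 CPM in every library.

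Of 6 tested genes of the muscle endplate, 0 were called by limma or edgeR and 0 had an unadjusted p under 0.05, with a median log2 change of -0.04. chrna1, lrp4 and chrng, the receptor subunits and the agrin receptor named by the rule, had relative changes of -0.75 ± 0.28, -0.70 ± 0.33 and 0.09 ± 0.34 at levels under 3 CPM.

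**Figure D5:**
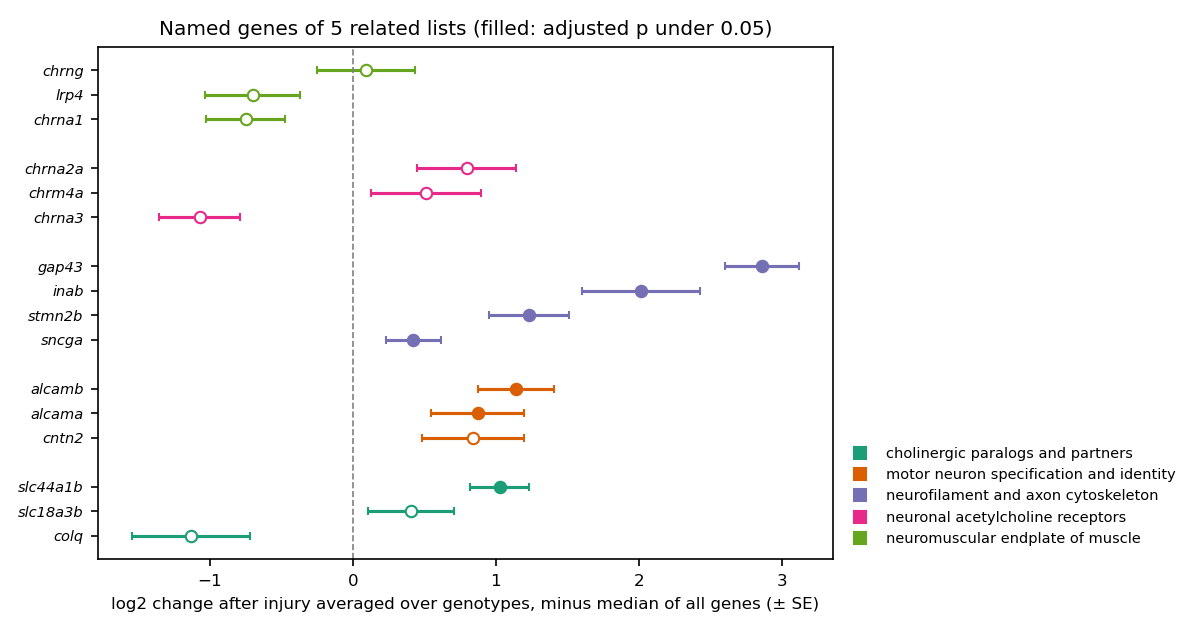
Log2 change from uninjured to 1 wpi averaged over genotypes, minus the median of all tested genes (dashed line), with limma SE as bars, for the named genes of 5 lists; filled points have a limma adjusted p under 0.05 and open points do not. gap43 stands highest at 2.86, and colq and chrna3 lowest at -1.13 and -1.07.

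Markers of other cell types were counted in the averaged comparison, in which 11.0% of all genes rose and 1.21% fell. With TMM scaling these shares were 5.49% and 2.97%. Peripherin is expressed by sensory ganglion neurons, and of 16 tested genes of such neurons, 2 rose, calca and ntrk2a, and 0 fell; with TMM scaling 1 rose and 1 fell. A count of 2 in 16 is near the share of all genes that rose. The median log2 change of that list was 0.07, against 0.31 for all genes. Its summed level was 244 to 405 CPM in uninjured and 836 to 1325 CPM in injured libraries. Most of the sum was calca, at 165 to 268 CPM and 703 to 1199 CPM. calca is a calcitonin gene-related peptide gene that motor neurons also express in mammals. drgx, of the same list, went the other way, at 16.0 to 24.7 CPM in uninjured and 9.91 to 13.6 CPM in injured libraries. Of all tested genes, 2.44% lay below in all injured libraries. Of 30 skeletal muscle genes 19 fell and 0 rose, and of 16 liver genes 7 fell and 0 rose, or 4 and 0 with TMM scaling. Of 11 oligodendrocyte and myelin genes 4 rose and 2 fell, or 3 and 1 with TMM scaling, and their summed level was 88792 to 134386 CPM in uninjured and 44227 to 50754 CPM in injured libraries, without overlap. Most of that sum was mbpa, with a relative log2 change of -1.61 ± 0.27 (limma adjusted p = 0.00933), a call lost with TMM scaling (0.176). Of 16 oocyte genes 0 were called by limma or edgeR in the averaged comparison and 0 had an unadjusted p under 0.05. Within genotypes, limma called 10 of them lower after injury in wild type, where 0.952% of all genes fell. In mutants it called 10 of them higher, where 2.94% of all genes rose. The summed level of the oocyte genes was highest in wild type uninjured 1 and mutant 1 wpi 1. Macrophages and microglia were represented by 14 genes, of which 10 rose and 0 fell, or 7 and 0 with TMM scaling. The sums of these genes were 1564 to 2444 CPM in uninjured and 15610 to 20949.6 CPM in injured libraries. Of 11 radial glia genes 6 rose and 0 fell, or 3 and 0 with TMM scaling. Their part in the changes of the members was not tested.

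Libraries were also compared by the pattern of the members over them. Across the 8 libraries chata and slc18a3a had a Pearson r of 0.20, chata and ache 0.87, slc18a3a and slc5a7a 0.83, and prph and chata -0.30. Pairs outside these were also close: ache with isl1 (0.86) and isl2a (0.84), slc5a7a with isl2a (0.85), and slc18a3a with prph (0.75). These correlations are a description over libraries of which mutant uninjured 1 was the lowest for every member. The 5 genes whose log2(CPM + 1) followed the mean of the standardised chata, slc18a3a and slc5a7a values most closely were tsr2 (r = 0.99), tbx3b (0.98), CR854945.1 (0.98), si:ch211-22i13.2 (0.98) and timm44 (0.97). Those most like prph were igfbp3, htra1b, cotl1, cirbpa and cth, each with r = 0.99. The first 5 genes were lowest in mutant uninjured 1, as the members were, and the second 5 were higher in all injured than in all uninjured libraries. Of all tested genes, 38.3% and 21.3% had these traits. Both traits follow from choosing genes by likeness over the same libraries, and are not separate results.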

How the data were processed

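RNA was sequenced as 50 bp paired-end reads. The submitters' processing notes name Bowtie2, Cufflinks and Cuffdiff; versions, genome build, annotation and strand of counting are not given in these sources. The authors deposited 4 tables with the same CPM in 8 columns, equal between tables within a relative difference of 1.13e-08. Symbols of 1 of them did not match for 16 entries, which were not used from it. The authors' log2 fold changes, standard errors and adjusted p-values, per the file headers, were used for some comparisons. These were injured against uninjured wild type, and mutant against wild type, uninjured and at 1 wpi. No such values were used for injury in mutants or the interaction. One injured wild-type column carries the number 3, which no label has, and was placed by its group name.

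Whole reads were recovered from the CPM steps: 100% of values were whole within 0.01 reads. The design allowed for counts or CPM, and its part for CPM was followed. With a trended prior variance, limma 3.58.1 under R 4.3.3 was fitted to log2(CPM + 1) with 4 group means and 4 residual degrees of freedom, on the 19114 genes whose mean reached 1 CPM in some group; the pseudocount of 1 understates changes of low genes. Benjamini-Hochberg adjustment ran over all genes in each of 6 comparisons. edgeR 4.0.16 on the recovered reads, an alternative, called 386 genes for injury in wild type, 175 in mutants and 1500 averaged. Other alternatives were the pseudocount, no filter on low values, TMM scaling, the 2 groups alone, a replicate block, each library left out and, added after seeing the data, the oocyte-rich libraries left out and scaling to the pan-neuronal list. Scripts were tested on simulated data. Ratios and exact permutation tests were computed in Python 3.11.15 with numpy 2.4.6.

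Named were all members, every gene of 5 related lists past the threshold, the 3 with the smallest p in the averaged injury comparison from each list, and the 5 genes most like the transmitter genes and prph. Members and lists were chosen with earlier results of these data known. Marker genes outside this rule were named after their values were seen. Listed genes were matched by symbol, 2 of them under another symbol.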

Additional observations from a re-analysis of the deposited data

How the results depend on the processing

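The rise of prph averaged over genotypes kept its call under every alternative run. In wild type it was lost when the oocyte-rich libraries were left out (limma adjusted p = 0.0927, 0 members called), with a log2 change of 1.67 against 1.66 with all libraries. In mutants it was lost with edgeR (0.0588) and with pan-neuronal scaling (limma adjusted p = 0.0628), each with 0 members called. Averaged over genotypes, prph was called higher with TMM scaling, edgeR and pan-neuronal scaling. The members called lower were chata and ache with TMM scaling and edgeR, and ache with pan-neuronal scaling. Of all genes, 5.49% rose and 2.97% fell with TMM scaling, and 4.57% and 3.28% with edgeR. With pan-neuronal scaling 619 of 19114 genes rose and 343 fell.

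Signs turned for members near 0, none of them called; the cause was not tested. In wild type slc18a3a was -0.21 with TMM scaling, -0.22 with edgeR, -0.15 without the oocyte-rich libraries and -0.15 with pan-neuronal scaling. In mutants isl1 was -0.36, -0.45 and -0.44 with TMM, edgeR and pan-neuronal scaling, mnx1 -0.30, -0.53 and -0.50, and without the oocyte-rich libraries mnx1 was -0.046 and ache 0.084. Averaged, slc5a7a was -0.19, -0.24 and -0.19 with these 3. With pan-neuronal scaling chata was -0.034 and isl2a -0.024 between genotypes at 1 wpi, and the interaction of prph -0.047.

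Counts of called genes moved more. In wild type they were 386 with edgeR, 110 with the 2 groups alone, 317 without the oocyte-rich libraries and 384 with pan-neuronal scaling. In mutants they were 382 with no filter, 241 with TMM, 175 with edgeR, 1234 with the 2 groups alone, 336 without the oocyte-rich libraries and 98 with pan-neuronal scaling. Averaged they were 1500 with edgeR, 1255 without the oocyte-rich libraries and 962 with pan-neuronal scaling. Between uninjured genotypes they were 93 with the 2 groups alone and 6 without the oocyte-rich libraries. At 1 wpi they were 17 with no filter, 231 with the 2 groups alone and 0 with TMM, edgeR or pan-neuronal scaling. For the interaction they were 63 with no filter, 36 with TMM, 0 with edgeR and 49 with pan-neuronal scaling.

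The replicate block could be fitted for 2 comparisons, as injured wild type has no column numbered 2. Fitted on the libraries outside injured wild type, it called 1391 genes for injury in mutants and 179 between uninjured genotypes. The main fit of all 8 libraries called 610 and 0, and the 2 groups alone, with no block, 1234 and 93. The sets of libraries differ, so these counts do not show the effect of the block alone. Members called were 1 and 0 in each of these fits. Libraries sharing a number deviated together with correlations of 0.299, 0.213 and 0.199, but with only the numbers 1 and 2 the numbers are treated as shared names.

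Leaving out each library in turn gave 57 to 3834 called genes in wild type, 56 to 1751 in mutants, 818 to 5565 averaged, 0 to 825 between uninjured genotypes, 0 to 142 at 1 wpi and 0 to 350 for the interaction. Called members were 0 to 1, 0 to 2 and 1 to 2 in the first 3 of these. Member values whose sign turned ranged as follows. In wild type slc18a3a was -0.15 to 0.33 and isl1 -0.65 to 0.037. In mutants chata was -0.64 to 0.21, slc5a7a -0.071 to 1.18, isl1 -0.60 to 0.71, isl2a -0.28 to 1.47, mnx1 -0.75 to 0.75 and ache -0.85 to 0.63. Averaged, slc5a7a was -0.14 to 0.48, isl1 -0.46 to 0.20 and isl2a -0.48 to 0.39. Between uninjured genotypes slc18a3a was -1.22 to 0.058, slc5a7a -1.16 to 0.082, isl1 -1.13 to 0.18, mnx1 -0.98 to 0.51, ache -1.34 to 0.13 and prph -1.20 to 0.028. At 1 wpi isl2a was -0.14 to 0.25 and ache -0.077 to 0.31. For the interaction isl1 was -0.30 to 1.02, ache -0.016 to 1.46 and prph -0.40 to 0.83.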
